A study of Mus musculus with 4 samples.

Results

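C1q positive macrophages were examined in the tibial muscle of mice that carry *Nse-Bmp4*, a model of heterotopic ossification (HO) in which bone forms in soft tissue. A cell was counted as a C1q positive macrophage when it carried at least 10 unique molecular identifiers (UMIs, counted mRNA molecules) of *C1qa*, *C1qb* and *C1qc* together, at least 1 UMI of *Csf1r*, *Fcgr1* or *Adgre1*, at most 1 UMI of the dendritic cell gene *Cd209a*, and at most 10% of its UMIs from mitochondrial genes. The cells were thus chosen by these measured UMI counts, so the levels of the genes named in the rule are a description and not a result. The rule found 1288 cells of 62665. The study asked how inflammation bears on the fate of mesenchymal stromal cells when HO forms after muscle injury.

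The 4 groups were Uninjured muscle and muscle taken 1, 3 or 7 days after the injury (days post injury, dpi), each a single 10x single-cell library into which 3 tibial muscles were pooled. Injury was made with cardiotoxin, a snake venom toxin that kills muscle fibres and leaves the tissue able to regenerate. The mice were C57BL/6 of 6 to 8 weeks, and all 4 groups carried the *Nse-Bmp4* transgene, in which the promoter of a neuronal enolase gene drives *Bmp4*, so Uninjured muscle was not wild type and no mouse without the transgene was analysed here. The 3 muscles of a library could not be separated, so no comparison of time points could be tested, and time point and library cannot be told apart. All intervals below are exact 95% intervals that cover counting error only, since UMIs of 1 cell and cells of 1 library are not independent samples.

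The libraries held 12031 cells (Uninjured), 11722 cells (1 dpi), 15160 cells (3 dpi) and 23752 cells (7 dpi), with 112317902, 91146335, 116346301 and 129007669 UMIs. The macrophages numbered 80, 631, 485 and 92 in that order, and together held 800543, 5590152, 3196218 and 616908 UMIs. Their median depth was 8610, 7985, 5578 and 5000 UMIs per cell, so the Uninjured and 7 dpi macrophages rest on few cells and the 7 dpi cells were also the shallowest. A gene without a UMI could still have been at up to 3.75, 0.537, 0.939 and 4.86 counts per 1000000 (CPM, UMIs of a gene per 1000000 UMIs summed over the macrophages of a library). Between 30 and 95 cell barcodes were shared by any pair of libraries, and 2 of them belonged to macrophages, both between 1 and 3 dpi.

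The 1 dpi library stood apart in *Ifi202b*, and all genes were not searched for this pattern. The sex-linked gene *Xist* was at 0 UMIs in the macrophages of Uninjured, 3 dpi and 7 dpi, but not in those of 1 dpi. *Ifi202b*, an interferon-inducible gene of the DNA-sensing family, had no UMI in any cell of the Uninjured or 7 dpi library and 11 UMIs in the whole of 3 dpi, against 8840 UMIs in the whole of 1 dpi, where 431 of the 631 macrophages carried it and the remaining cells held 88.7 CPM. What sets this library apart was not tested, so results of 1 dpi are followed by the direct comparison of 3 dpi with Uninjured, which leaves the library out.

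C1q is the recognition unit of the classical complement pathway. In tissues it is made mainly by macrophages, and it binds dying cells and immune complexes and tags them for uptake. In injured muscle, monocytes enter from the blood and become macrophages that first clear debris and carry inflammatory genes, and later carry genes of lipid handling, antigen presentation and repair, next to macrophages that lived in the muscle before injury.

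The label was checked with 16 macrophage genes that the rule did not use, and all 16 were detected in every library. Their summed level was 22923, 17857, 21319 and 20287 CPM in the macrophages and 856, 3556, 1283 and 937 CPM in the remaining cells. Classical monocytes, gated on *Ly6c2* and low C1q, held them at 31139, 16718, 11815 and 29061 CPM, so this list marks the wider lineage and does not tell the macrophages from monocytes. *Lyz2*, the macrophage lysozyme, was the most abundant of them in every library, at 12043, 5112, 9166 and 11635 CPM. The genes of the rule were measured in the same cells: *C1qa* (chr4:136895917-136898803, GRCm38) at 2346, 1376, 3224 and 2279 CPM and *C1qb* (chr4:136880129-136886187) at 3268, 2403, 3555 and 3070 CPM. *Csf1r*, the receptor of the macrophage growth factor CSF1, stood at 385, 263.5, 475 and 271 CPM, *Fcgr1*, a high-affinity antibody receptor, at 117, 561.5, 321 and 193 CPM, and *Adgre1*, the F4/80 antigen, at 167, 198, 289 and 144 CPM. B cells, which should lack C1q, held *C1qa* at 0.849, 3.92, 3.64 and 1.41 CPM, a level against which free RNA in the droplets can be read. The resident markers *Vsig4* (0 UMIs in any library) and *Timd4* (1 UMI in all) were at or near 0, so these cells could not be called resident from those genes.

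The macrophages had a median of 53, 32, 43 and 34.5 C1q UMIs. Just inside the threshold, 9, 94, 42 and 15 macrophages had 10 to 14 C1q UMIs, and just outside it 10, 140, 63 and 42 cells had 5 to 9. A further 1, 32, 29 and 19 cells reached the C1q threshold without a UMI of *Csf1r*, *Fcgr1* or *Adgre1*, and 6, 6, 8 and 5 were left out for *Cd209a*.

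C1q positive macrophages were scarce in Uninjured muscle, were 5.81% of cells at 1 dpi, and were scarce again at 7 dpi. Shares are of the 11827, 10853, 14118 and 23026 cells within the 10% mitochondrial limit. The macrophages made up 0.676% of these cells in the Uninjured library (0.537 to 0.841), 5.81% at 1 dpi (5.38 to 6.27), 3.44% at 3 dpi (3.14 to 3.75) and 0.400% at 7 dpi (0.322 to 0.490). The 4 intervals do not overlap. The share was 8.60 times that of Uninjured at 1 dpi (6.80 to 11.0), 1.69-fold lower at 3 dpi than at 1 dpi (1.5 to 1.91) and 8.60-fold lower at 7 dpi than at 3 dpi (6.87 to 10.9). The order of 1 and 3 dpi turned when every cell was first thinned to 2000 UMIs and shallower cells were left out, which gave 2.54% at 1 dpi and 2.90% at 3 dpi. A share counts cells recovered after digestion, and the gain or loss of other cells moves it too.

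Classical monocytes (*Ly6c2* high, C1q low) numbered 52, 747, 169 and 72. Neutrophil genes stood at 11388, 9890, 6047 and 5905 CPM in this gate, and at 18.7, 2709, 1670 and 32.4 CPM in the macrophages. What part other cell types had in this gate was not tested. A gate set for nonclassical monocytes (*Ace* or *Treml4*, C1q low) held 137, 138, 63 and 34 cells, but mesenchymal genes stood at 50392, 34377, 32832 and 57477 CPM in them and the 16 macrophage genes at 1775, 1797, 1486 and 7511 CPM. They are therefore called by their gate and are not compared as monocytes. *Cd209a* dendritic cells numbered 162, 136, 519 and 87. At 3 dpi the macrophages outnumbered the classical monocytes, with 485 against 169 cells, whereas at 1 dpi there were 631 against 747.

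**Figure D1:**
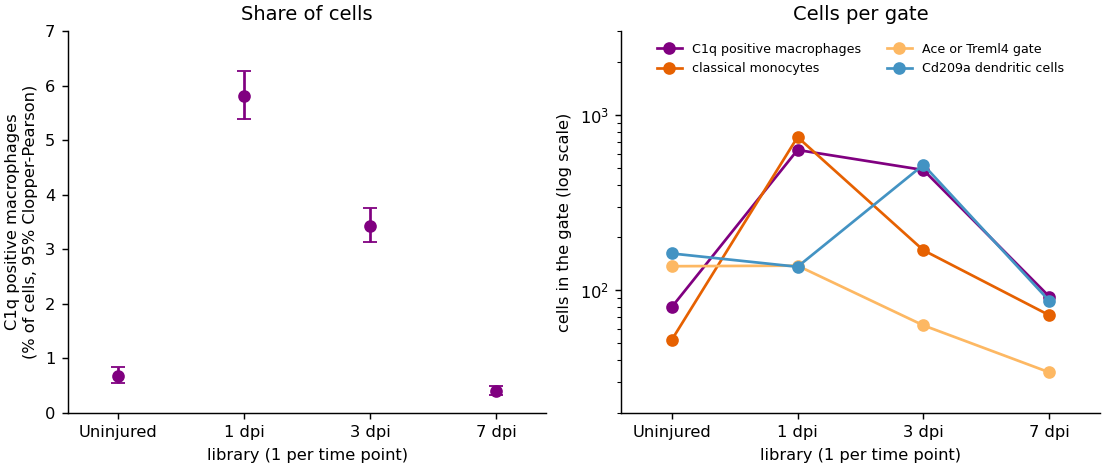
C1q positive macrophages by time point. Left, share in percent of the cells within the mitochondrial limit in each of the 4 libraries, with exact 95% intervals for counting error: 0.676, 5.81, 3.44 and 0.400%. Right, number of cells in 4 gates on a log axis, where the macrophages go from 80 in Uninjured to 631, 485 and 92.

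At 1 dpi the macrophages held higher levels of interferon response genes than those of Uninjured muscle and lower levels of class II antigen presentation and alternative activation genes. Genes of classical monocytes and several secreted attractants of leukocytes were higher as well. Of 5417 genes at or above a mean of 20 CPM, 616 (11.4%) were at least 2-fold higher at 1 dpi and 362 (6.68%) at least 2-fold lower. These are counts by size, without a test. The 362 became 97 among genes at least as high in the macrophages as in the remaining cells, and 222 without cells in which another type passed 1% of UMIs. Mesenchymal genes were 3.43-fold lower in the macrophages at 1 dpi and neutrophil genes 145-fold higher, and their part was not tested. A gene that was low in 1 library passed this filter through the other, so the counts for each gene group below describe it and support nothing further. The same holds for the choice of groups, which was made with earlier results of these data known.

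The type I interferon response genes encode antiviral proteins switched on by interferon alpha and beta. Their summed level was 572 CPM (521 to 627) in Uninjured macrophages, 4980 CPM (4922 to 5039) at 1 dpi, 1883 CPM at 3 dpi and 903 CPM at 7 dpi. All 12 that passed the filter, of 13 measured and 14 listed, were at least 2-fold higher at 1 dpi than in Uninjured, with a median log2 ratio of 3.48 beside 0.09 over all genes. The remaining cells moved in the same order, with 336, 1760, 668 and 337 CPM, whereas B cells held 237, 373, 301 and 322 CPM. *Isg15*, a ubiquitin-like modifier, stood at 98.7, 996, 279 and 185 CPM, which was 10.1-fold higher at 1 dpi than in Uninjured (8.08 to 12.8). *Irf7*, the transcription factor that amplifies interferon production, stood at 56.2, 772, 234 and 109 CPM. Its 1 dpi level was 13.7-fold that of Uninjured (10.3 to 18.9). *Rsad2*, which encodes the antiviral enzyme viperin, stood at 45.0, 462, 239 and 35.7 CPM, and *Bst2*, which tethers virus particles to the cell, at 234, 1371, 494 and 323 CPM. *Ifit1*, which blocks translation of viral mRNA, stood at 9.99, 125, 85.1 and 13 CPM, beside 25.2, 118, 64.6 and 25.5 CPM in the remaining cells. Each of these 5 genes was highest at 1 dpi and second highest at 3 dpi.

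The proximal promoters of these genes were searched for the core of the interferon-stimulated response element, the sequence bound by interferon-activated factors. The letters were GAAANNGAAA (reverse strand TTTCNNTTTC), read on both strands over the 250 bases before the RefSeq start site on GRCm38.p6, and overlapping matches were counted apart. They occur in 2.98% of 32851 mouse promoters. Of the 14 listed genes, 11 had a promoter in the table and 6 held at least 1 match. The 4 below are shown because their levels are described above, in the direction of the gene, with the matches in capitals.
Isg15: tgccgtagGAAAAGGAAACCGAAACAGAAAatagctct
Ifit1: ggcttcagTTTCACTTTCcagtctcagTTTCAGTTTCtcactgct
Rsad2: ggtccaacTTTCATTTTCagaaaaca
Bst2: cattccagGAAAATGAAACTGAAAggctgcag
The *Isg15* stretch is chr4:156200867-156200904 on the minus strand and holds 3 overlapping matches, 78 to 57 bases before the start. The *Ifit1* stretch is chr19:34640777-34640821 on the plus strand, the *Rsad2* stretch chr12:26456555-26456580 on the minus strand and the *Bst2* stretch chr8:71537579-71537610 on the minus strand. *Ifit3* and *Oas3* also held the letters, and the *Irf7* window did not. A match is a stretch of letters and not a tested site.

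The interferon gamma group, which holds the immunity GTPases and the transcription factor *Irf1*, followed the same order at 299.8, 999, 565 and 350 CPM. Of 9 genes past the filter, 7 were at least 2-fold higher at 1 dpi than in Uninjured and none lower. Among them were *Cd274*, *Gbp2*, *Gbp3*, *Igtp*, *Irf1* and *Irgm1*. The core of the interferon-stimulated response element was searched in this group too. Of its 11 listed genes, 8 had a promoter in the table and 6 of these held a match. *Irf1* stood at 112, 291, 173 and 90.8 CPM. *Cd274*, which encodes the checkpoint ligand PD-L1, stood at 2.50, 79.8, 14.7 and 8.11 CPM, on 2 UMIs in Uninjured, a ratio of 31.9 (8.79 to 265).

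Class II genes moved the other way. These genes encode the receptors that show peptides to CD4 T cells, their invariant chain *Cd74* and the loading factors. The group summed to 21914 CPM in Uninjured, 5538 CPM at 1 dpi, 13795 CPM at 3 dpi and 24637 CPM at 7 dpi, so the level at 1 dpi was 3.96-fold lower than in Uninjured (3.88 to 4.03). Of 7 genes past the filter, 6 were at least 2-fold lower, with a median log2 ratio of -2.00. *Cd74* stood at 9912, 2472, 5799 and 10551 CPM. *H2-Ab1*, the beta chain of the I-A receptor, stood at 3881, 944.5, 2465 and 4221 CPM, which at 1 dpi was 4.11-fold lower than in Uninjured (3.93 to 4.30). *H2-Aa*, the alpha chain, stood at 3359, 983, 2618 and 4294 CPM. *Ciita*, the transactivator of class II genes, stood at 33.7, 20.2, 50.7 and 56.7 CPM and was lowest at 1 dpi too, by less than 2-fold.

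The same promoter windows were searched for CTGATTGG (reverse strand CCAATCAG), the Y box of class II promoters, on both strands. It occurs in 3.83% of the 32851 windows. Of the 8 listed genes 5 had a window, and 2 of these held the letters. They are shown because both chains followed the group, and both carry the letters in the direction of the gene, 51 to 44 and 62 to 55 bases before the start.
H2-Aa: agaattttCTGATTGGttctggcg
H2-Eb1: ctttgatgCTGATTGGctcccagc
The *H2-Aa* stretch is chr17:34287859-34287882 on the minus strand and the *H2-Eb1* stretch chr17:34305797-34305820 on the plus strand of GRCm38.p6.

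Alternative activation genes, which interleukin 4 and 13 induce in macrophages, summed to 4885, 829, 1303 and 1723 CPM. Of 10 past the filter at 1 dpi against Uninjured, 6 were at least 2-fold lower (among them *Ccl24*, *Ear2*, *Fcrls*, *Mgl2* and *Retnla*) and 1, *Chil3*, was higher. *Retnla*, which encodes a secreted protein of the resistin family, stood at 3640, 2.86, 83.9 and 807 CPM, most of the sum in Uninjured only, and was 1271.8-fold lower at 1 dpi (782 to 2228). It was held by few cells, 15, 5, 16 and 10 of the macrophages, and 1 cell held 61.8% of its UMIs at 7 dpi. *Mgl2*, a C-type lectin for galactose, stood at 159, 10.4, 47.9 and 167 CPM. *Lyz1*, a lysozyme nearly identical to *Lyz2* so that reads may be shared, stood at 1134, 12.7, 14.1 and 183 CPM in 15, 13, 25 and 6 macrophages. *Mrc1*, the mannose receptor, stood at 289, 244, 499 and 284 CPM and did not follow this group.

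**Figure D2:**
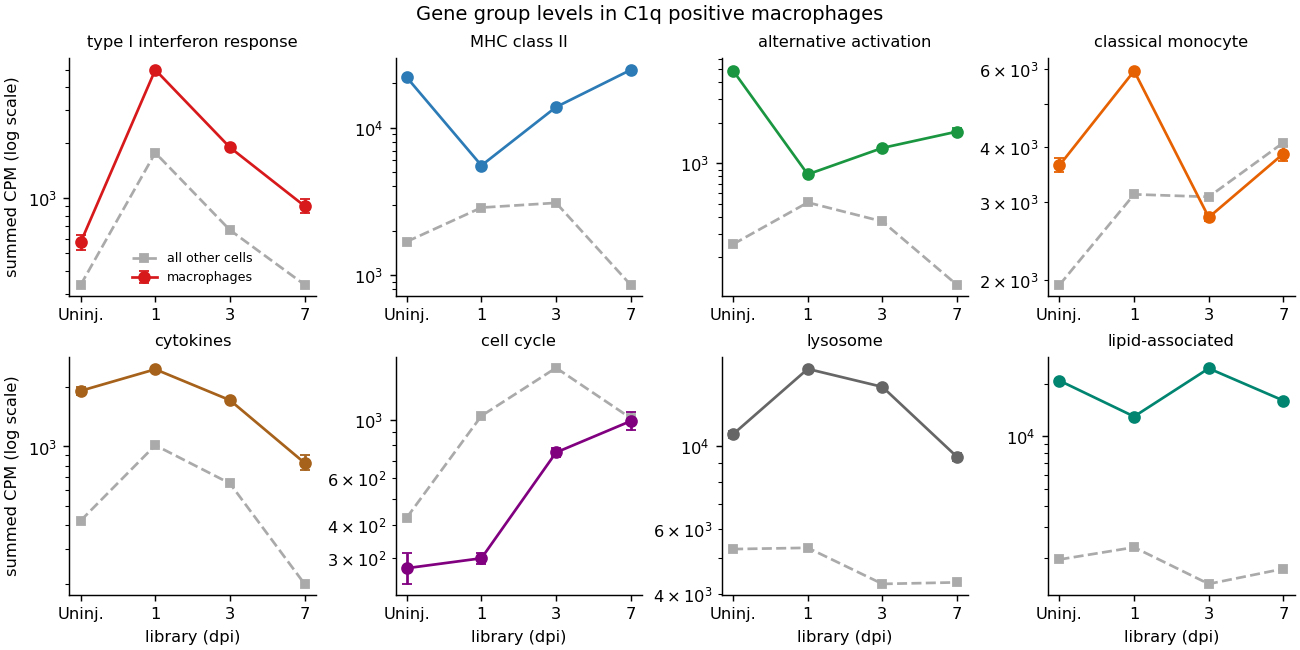
Summed level of 8 gene groups in C1q positive macrophages (solid, coloured) and in all remaining cells of the same library (grey, dashed), in CPM on a log axis, for Uninjured, 1, 3 and 7 dpi. Bars are exact 95% intervals for counting error. The type I interferon response peaked at 1 dpi at 4980 CPM, where MHC class II was lowest at 5538 CPM.

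Classical monocyte genes were higher at 1 dpi, in cells that all carried C1q. Of 11 past the filter, 6 were at least 2-fold higher than in Uninjured (among them *Chil3*, *F10*, *Hp*, *Ly6c2* and *Plac8*) and *Fn1* was lower. *Ly6c2*, the surface marker of this monocyte type, stood at 97.4, 1925, 197 and 212 CPM, a 19.8-fold difference at 1 dpi (15.8 to 25.0), and 564 of the 631 macrophages had a UMI. *Plac8* stood at 175, 1748, 340 and 371 CPM and was highest at 1 dpi too. *Ccr2*, the receptor that brings monocytes out of the marrow, varied little, at 661, 516, 520 and 550 CPM. *Cx3cr1*, the fractalkine receptor, was 13-fold lower at 1 dpi than in Uninjured (10.6 to 16.2), at 317, 24.3, 155 and 82.7 CPM.

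Of 17 attractant genes past the filter at 1 dpi against Uninjured, 7 were at least 2-fold higher (*Ccl2*, *Ccl5*, *Ccl6*, *Ccl7*, *Ccl8*, *Ccl9* and *Ccl12*) and 3 lower (*Ccl24*, *Cxcl9* and *Cxcl14*). *Ccl2*, which attracts monocytes, stood at 963, 3294, 669 and 592 CPM, and was 3.42-fold higher at 1 dpi (3.18 to 3.68). *Ccl7*, a second ligand of the same receptor, stood at 239, 2260, 506 and 454 CPM, and *Ccl12*, its close relative, at 37.5, 831, 175 and 274 CPM. These 3 were highest at 1 dpi. *Ccl8* stood at 5.00, 369, 260 and 371 CPM and did not come back to the Uninjured level. At 1 dpi 122 of the 631 macrophages carried *Ccl8*, and at 7 dpi 1 macrophage held 46.7% of its UMIs. *Ccl5* was higher in the remaining cells than in the macrophages, whose level was 22.5, 66.2, 94.8 and 182 CPM.

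Among cytokines, 5 of 9 past the filter were at least 2-fold higher at 1 dpi than in Uninjured (*Il10*, *Il1rn*, *Il6*, *Osm* and *Tnf*) and none was lower. *Tnf*, the inflammatory cytokine, stood at 129, 513, 163 and 81.1 CPM, with a UMI in 37, 454, 205 and 23 macrophages. It was 3.99-fold higher at 1 dpi (3.27 to 4.90). *Il10*, an anti-inflammatory cytokine, stood at 8.74, 116, 88.2 and 3.24 CPM in 4, 125, 57 and 2 macrophages, 13.2-fold higher at 1 dpi (6.39 to 33.1). *Il1rn*, the antagonist of the interleukin 1 receptor, stood at 32.5, 221, 42.2 and 58.4 CPM, and *Il1b* itself at 1397, 985, 1019 and 491 CPM. Inflammatory and anti-inflammatory cytokines were highest in the same library, and *Il1b* was not. *Il6* was higher in the remaining cells of each library than in the macrophages. *Il12b* had no UMI in any macrophage and *Nos2* had 1.

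The study names *Tnf*, *Fcgr1*, *Tlr4* and *Il1a* for M1 and *Mrc1*, *Csf1r*, *Tgfb1*, *Cd163* and *Retnla* for M2 macrophages. The study applied these genes to clusters of these same libraries, and 2 of them belong to the rule, so their direction is not independent evidence. The M1 genes summed to 259.8, 1116, 511 and 290 CPM and the M2 genes to 4554, 693, 1262 and 1548 CPM, of which *Retnla* made 3640 CPM in Uninjured. *Tgfb1*, which encodes the growth factor TGF beta 1, stood at 199, 177, 196 and 183 CPM, and *Tlr4*, the endotoxin receptor, at 13.7, 35.2, 22.8 and 16.2 CPM. *Cd163*, the haemoglobin scavenger receptor, stood at 42.5, 6.08, 7.82 and 3.24 CPM. *Il1a* was at 0 UMIs in Uninjured and at 7 dpi, and at 6.08 and 4.69 CPM at 1 and 3 dpi.

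Lipid handling genes were mixed at 1 dpi. Of 15 past the filter, 4 were at least 2-fold higher than in Uninjured (*Abcg1*, *Fabp5*, *Gpnmb* and *Nr1h3*) and 3 lower (*Apoe*, *Cd9* and *Trem2*). The sum was lower, at 20812 CPM in Uninjured and 12958 CPM at 1 dpi, while the median log2 ratio was 0.59, so sum and median differ in sign. *Apoe*, the lipid carrier, stood at 13081, 3945, 19675 and 11469 CPM. *Trem2*, a lipid-sensing receptor, stood at 545, 161, 481 and 256 CPM. *Gpnmb*, a lysosomal membrane glycoprotein, stood at 84.9, 248, 202 and 34.0 CPM, and *Fabp5*, a fatty acid carrier, at 758, 1599, 821 and 363 CPM. *Apoe* and *Trem2* were thus lowest at 1 dpi, where *Fabp5* and *Gpnmb* were highest. *Spp1*, osteopontin, stood at 2391, 1286, 542 and 655 CPM, and 1 cell held 43.4% of its Uninjured UMIs.

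The lysosome group summed to 10761, 16117, 14421 and 9350 CPM. At 1 dpi 2 of 16 genes past the filter were at least 2-fold higher than in Uninjured and none was lower. Over all genes past the filter 11.4% were higher by the fold, so this count does not set the group apart. *Ctsb*, a cysteine protease, stood at 1840, 3611, 3520 and 1744 CPM, and *Grn*, progranulin, at 560, 1311, 963 and 564 CPM. Genes for the uptake of dying cells were close between these libraries, with 1 of 14 higher (*Mertk*) and 1 lower (*Mfge8*). They summed to 1320, 1238, 1189.5 and 1091 CPM, below the remaining cells in every library, at 2568, 2257, 1790 and 1388 CPM. *Mertk*, the receptor through which C1q positive macrophages engulf dying cells, stood at 18.7, 58.0, 42.2 and 21.1 CPM.

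Ranked by ratio at 1 dpi against Uninjured, the 10 genes furthest up were *Slfn4*, *Ccl8*, *Ifi202b*, *Acod1*, *Cd274*, *Usp18*, *Ifit3*, *Ccl12*, *Ly6c2* and *Cfb*, of which *Usp18*, *Ifit3* and *Cd274* belong to the interferon groups. *Slfn4*, an interferon-inducible gene of myeloid cells, stood at 1.25, 390, 34.1 and 3.24 CPM and was found in 494 of the 631 macrophages at 1 dpi. Its ratio was 312 (56.0 to 12336.4), on 1 UMI in Uninjured. *Acod1*, which makes itaconate, stood at 2.50, 89.6, 7.82 and 3.24 CPM. *Cfb*, factor B of the alternative complement pathway, stood at 12.5, 230, 163 and 71.3 CPM. The 10 furthest down were *Retnla*, *Cd209f*, *Lyz1*, *Cd209g*, *Fcrls*, *Hpgd*, *Ear2*, *Mgl2*, *F11r* and *Fxyd2*. *Cd209f* stood at 91.2 CPM in Uninjured, in 3 macrophages, and had 0 UMIs at 1 dpi, at least 169.9-fold lower, or at least 67.5-fold without the cell that held 60.3% of its UMIs. *Fcrls*, an Fc receptor-like scavenger gene, stood at 314, 15.4, 191 and 178 CPM. *Hpgd*, which inactivates prostaglandins, stood at 70.0, 3.94, 15.6 and 50.3 CPM. Both were lowest at 1 dpi.

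**Figure D3:**
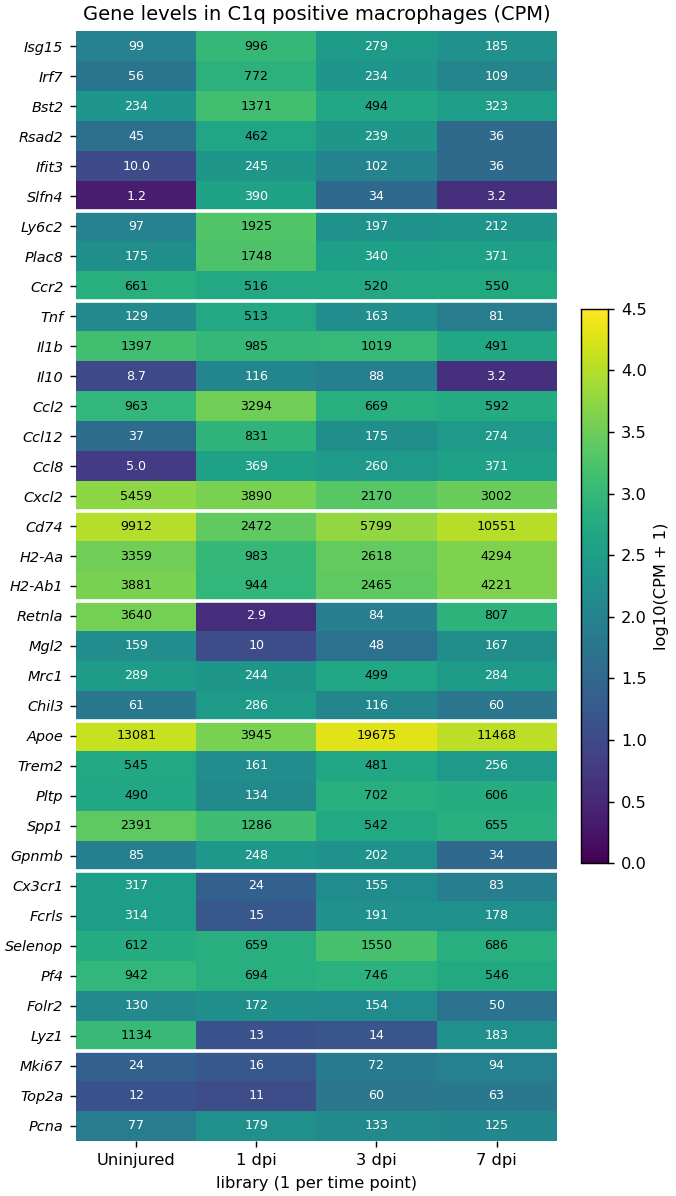
Levels of named genes in C1q positive macrophages of the 4 libraries, with the CPM printed in each field and colour by log10 of CPM plus 1. *Isg15* (98.7, 996, 279 and 185 CPM) and *Ly6c2* (97.4, 1925, 197 and 212 CPM) were highest at 1 dpi, *Cd74* was lowest there.

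From 1 to 3 dpi type I interferon response genes, most of the monocyte genes past the filter and some attractant genes were lower, and class II and some resident macrophage genes were higher. Lipid handling genes moved both ways. Of 5650 genes, 310 (5.49%) were at least 2-fold higher at 3 dpi and 274 (4.85%) at least 2-fold lower. The 310 became 75 among genes at least as high as in the remaining cells, and 156 without cells in which another type passed 1% of UMIs. Of 13 type I interferon genes past the filter, 10 were at least 2-fold lower and none higher, and the sum was 2.65-fold lower (2.57 to 2.72). *Rsad2* was 1.93-fold lower and did not reach the fold. Of 10 interferon gamma genes 4 were at least 2-fold lower and 1, *Ciita*, was higher. All 7 class II genes past the filter were at least 2-fold higher, and their sum was 2.49-fold higher (2.46 to 2.53).

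Of 11 monocyte genes past the filter 6 were at least 2-fold lower, among them *Ly6c2* at 9.78-fold (9.03 to 10.6) and *Plac8* at 5.14-fold (4.83 to 5.48), while *Fn1* was higher. Of 15 attractant genes past the filter, 4 were at least 2-fold lower, 2 (*Cxcl14* and *Cxcl16*) higher and 9 between. *Ccl2* was 4.92-fold lower (4.71 to 5.15), *Ccl7* 4.47-fold and *Ccl12* 4.74-fold, and *Ccl6* was also past the fold. *Cxcl16*, a membrane-bound ligand for T cells, was 3.24-fold higher (2.89 to 3.63). *Tnf* was 3.15-fold lower (2.87 to 3.47), whereas *Il1b* differed by 1.04-fold (0.990 to 1.08).

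Of the 15 lipid genes, 3 were at least 2-fold higher at 3 dpi (*Abca1*, *Apoe* and *Trem2*) and 6 lower (*Cd36*, *Fabp4*, *Lgals3*, *Nr1h3*, *Plin2* and *Spp1*). The median log2 ratio was -0.81 while the sum was higher, at 24470 after 12958 CPM. *Apoe* was 4.99-fold higher (4.91 to 5.06), *Trem2* 2.98-fold (2.74 to 3.24) and *Pltp*, which moves phospholipids between lipoproteins, 5.22-fold (4.80 to 5.68). The 3 resident genes past the fold were *Gas6*, *Mrc1* and *Selenop*, all higher, among 8 past the filter. *Selenop*, the selenium transport protein, stood at 612, 659, 1550 and 686 CPM. *Trf*, transferrin, stood at 204, 52.2, 306 and 157 CPM and *Cx3cr1* was 6.38-fold higher (5.27 to 7.77). *Trf* and *Cx3cr1* were thus nearer their Uninjured levels at 3 than at 1 dpi, and *Selenop* was further from its own.

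Genes of cell division were higher at 3 dpi, with 7 of 8 past the filter at least 2-fold up and a sum of 752 CPM after 299.6 CPM. *Mki67*, a nuclear protein of dividing cells, stood at 23.7, 15.9, 72.0 and 94.0 CPM and was 4.52-fold higher at 3 dpi than at 1 dpi (3.52 to 5.84). *Top2a*, which untangles DNA for division, stood at 12.5, 10.6, 60.1 and 63.2 CPM. The log2 ratio of the sum was 1.33, and 0.58 when cells were thinned to 2000 UMIs before the rule was applied, the lowest of the alternatives. The remaining cells held 427, 1033, 1568 and 1013 CPM of this group, more than the macrophages in every library. The part of other cells' RNA in the macrophage level was not tested.

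The 10 genes furthest up at 3 dpi were *Retnla*, *F11r*, *Fcrls*, *Hfe*, *Cx3cr1*, *Trf*, *Pltp*, *Apoe*, *Cd33* and *Mgl2*. *F11r*, a junctional adhesion molecule, was 14.1-fold higher (8.61 to 24.4) and *Fcrls* 12.4-fold (9.90 to 15.8). *Hfe*, a regulator of iron uptake, was 6.81-fold higher (5.26 to 8.91). The 10 furthest down were *Ifi202b*, *Lipg*, *Acod1*, *Slfn4*, *Ly6c2*, *F7*, *Gm14636*, *4930430E12Rik*, *Fabp3* and *P2ry10b*. *Slfn4* was 11.4-fold lower (9.43 to 14). *Lipg*, endothelial lipase, was 67.5-fold lower (18.5 to 560), on 2 UMIs at 3 dpi.

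From 3 to 7 dpi type I interferon response genes and several cytokine genes were lower again, class II was close to or above its Uninjured level, and several resident macrophage genes were lower. Of 5759 genes, 250 (4.34%) were at least 2-fold higher at 7 dpi and 355 (6.16%) at least 2-fold lower. The 250 became 63 among genes at least as high as in the remaining cells and 430 without the cells of highest Scrublet score, and the 355 became 557 without each gene's top cell. The 7 dpi library holds 92 macrophages, so 1 cell can carry a gene. Of 12 type I interferon genes past the filter, 9 were at least 2-fold lower and none higher. None of 8 interferon gamma genes passed the fold in either direction. *Rsad2* was 6.71-fold lower (4.40 to 10.8) and *Irf7* 2.16-fold (1.68 to 2.81). Of 7 class II genes 1 was at least 2-fold higher, and the sum was 1.79-fold higher (1.75 to 1.82). Of 9 cytokine genes, 5 were at least 2-fold lower, namely *Il10*, *Il1b*, *Il6*, *Osm* and *Tnf*. *Il1b* was 2.08-fold lower (1.84 to 2.34).

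The resident genes *Cbr2*, *Folr2*, *Selenop* and *Stab1* were at least 2-fold lower among 8 past the filter. *Folr2*, a folate receptor of resident macrophages, stood at 130, 172, 154 and 50.3 CPM and was 3.07-fold lower at 7 than at 3 dpi (2.14 to 4.57). *Selenop* was 2.26-fold lower. *Gpnmb* was 5.92-fold lower (3.84 to 9.63), and *Apoe* was 1.72-fold lower. The division genes were at 987 CPM, with 3 of 17 past the fold upward, and *Mki67* was at 1.31 times its 3 dpi level (0.962 to 1.75), within counting error.

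The 10 genes furthest up were *Rgs5*, *Lyz1*, *Retnla*, *Fabp4*, *Mgl2*, *Hpgd*, *Ptp4a3*, *Rras*, *Clec4n* and *Tmem243*. *Rgs5*, known from pericytes, had 91.6% of its 7 dpi UMIs in 1 macrophage, *Fabp4* 98.0%, *Ptp4a3* 51.5%, *Lyz1* 68.1% and *Retnla* 61.8%. Without the cell that held most of their UMIs, *Fabp4* turned to 4.31-fold lower at 7 dpi, *Ptp4a3* was 1.54-fold higher, and the other 8 still passed 2-fold. *Clec4n*, which encodes the fungal receptor dectin 2, stood at 55.0, 44.5, 78.5 and 214 CPM, 2.73-fold higher at 7 dpi (2.19 to 3.38). *Lyz1* was 13-fold higher (9.13 to 18.8) and 5.49-fold without its top cell, and *Retnla* 9.63-fold (8.28 to 11.2) and 4.67-fold without it. *Mgl2* was 3.49-fold higher (2.69 to 4.51). The 10 furthest down were *Il10*, *Mxi1*, *Pde3b*, *Madd*, *Klhl6*, *Gm42031*, *Rsad2*, *Ifit1*, *Gpnmb* and *Parp12*. *Il10* was 27.2-fold lower (7.46 to 226), on 2 UMIs at 7 dpi.

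Set directly against Uninjured, which leaves the 1 dpi library out, the macrophages of 3 dpi still held more interferon response mRNA and less *Retnla*. This comparison and that of 1 dpi share the Uninjured library. Of 5579 genes, 420 (7.53%) were at least 2-fold higher at 3 dpi than in Uninjured and 176 (3.15%) at least 2-fold lower. All 11 type I interferon genes past the filter were at least 2-fold higher and their sum 3.29-fold higher (2.99 to 3.63), and 2 of 7 interferon gamma genes were at least 2-fold higher. *Isg15* was 2.83-fold higher (2.25 to 3.61), *Rsad2* 5.32-fold (3.81 to 7.66) and *Ifit3* 10.2-fold (5.12 to 23.8). None of 7 class II genes passed the fold in either direction, with a median log2 ratio of -0.65. *Retnla* was 43.4-fold lower (38.3 to 49.4). *Il10* was 10.1-fold higher (4.83 to 25.3) and *Ccl8* 52.1-fold (20.3 to 192). Of 9 cytokine genes past the filter 2 were at least 2-fold higher and none lower. Of 16 attractant genes 4 were at least 2-fold higher and 2 lower, and their sum was 1.34-fold lower. Of 10 classical monocyte genes 1 was higher and 2 were lower by the fold, with a sum 1.31-fold lower. *Selenop* was 2.53-fold higher and *Apoe* 1.5-fold higher.

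At 7 dpi against Uninjured, 383 of 5475 genes (7.00%) were at least 2-fold higher and 222 (4.05%) at least 2-fold lower. Of 8 type I interferon genes past the filter, 3 (*Ifit2*, *Ifit3* and *Oasl2*) were at least 2-fold higher. Class II genes were close, with none of 7 past the fold. *Ccl8* was 74.3-fold higher (28.6 to 275) and *Ccl12* 7.31-fold, while *Retnla* was 4.51-fold, *Cx3cr1* 3.84-fold, *Il1b* 2.84-fold and *Folr2* 2.59-fold lower. A single macrophage held 61.85% of the *Retnla* UMIs at 7 dpi, and a single one held a large part of those of *Ccl8*, as given above. The ratios of *Ccl8* and *Retnla* depend on such cells. *Mki67* was 3.96-fold higher (2.33 to 7.04). Of 11 division genes past the filter, 9 were at least 2-fold higher.

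Genes that act on bone and mesenchymal cells were looked at for the HO setting. *Bmp4* encodes an osteogenic ligand and is the gene carried by the transgene, whose UMIs could not be told from those of the mouse's own *Bmp4*. It stood at 12.5, 4.65, 7.20 and 6.48 CPM in the macrophages, on 10, 26, 23 and 4 UMIs. The remaining cells held 102, 52.3, 38.9 and 16.7 CPM. Its level in the macrophages was below that of the remaining cells in every library. *Igf1*, a growth factor of muscle repair, stood at 68.7, 18.8, 123 and 198 CPM, also below the remaining cells, at 383, 171, 291 and 596 CPM. Osteoclast genes summed to 171, 157, 146 and 206 CPM, also below the remaining cells, at 285, 215, 178.5 and 371 CPM. The part of other cells' RNA in this group, *Ctsk* included, was not tested. The osteoclast genes *Calcr*, *Dcstamp*, *Ocstamp* and *Oscar* had no UMI in the macrophages of Uninjured muscle or at 7 dpi. Only *Oscar* was at 0 UMIs at 1 dpi, and *Calcr*, *Dcstamp* and *Oscar* were at 3 dpi. *Ctsk* was the most abundant of the group at 7 dpi, at 60.0 CPM, and 2.37-fold higher than at 3 dpi (1.56 to 3.53). It was the only 1 of 4 past the filter to pass the fold there, and none was lower by it.

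The macrophages of a library were not alike. To compare shares of cells across depths, each cell was thinned to 1000 UMIs, which left out 1 macrophage at 3 dpi and 1 at 7 dpi, and B cells thinned the same way served as a reference that was chosen after the data were seen. *Ly6c2* was found in 6.25% of Uninjured macrophages (2.06 to 14), 63.7% at 1 dpi (59.8 to 67.5), 14% at 3 dpi (11.1 to 17.5) and 15.4% at 7 dpi (8.67 to 24.5), beside 0.746, 2.10, 3.55 and 1.48% of B cells. Without thinning, 12, 564, 172 and 19 macrophages had a UMI. A UMI of *H2-Aa*, *H2-Ab1* or *H2-Eb1* was found in 66.3% (54.8 to 76.5), 34.7% (31.0 to 38.6), 67.8% (63.4 to 71.9) and 82.4% (73.0 to 89.6) of the macrophages, so the lower class II level at 1 dpi went with fewer cells carrying it. B cells express class II themselves and give no reference here.

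*Cx3cr1* was found in 21.3, 1.43, 12.8 and 8.79% of the macrophages and *Trem2* in 42.5, 13, 35.1 and 23.1%. Both were rarest at 1 dpi. *Retnla* was found in 15.0% of Uninjured macrophages (8.00 to 24.7) and in 0 of 631 thinned cells at 1 dpi. Without thinning it was found in 15 and 5 cells of those libraries. *Ccr2* was found in 32.5, 33.0, 37.6 and 40.7%. *Mki67* or *Top2a* was found in 1.25, 1.90, 4.55 and 5.50%, beside 3.36, 3.84, 9.02 and 4.93% of B cells, which divide themselves and so give no reference for free RNA here either. No change is read from these low shares.

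**Figure D4:**
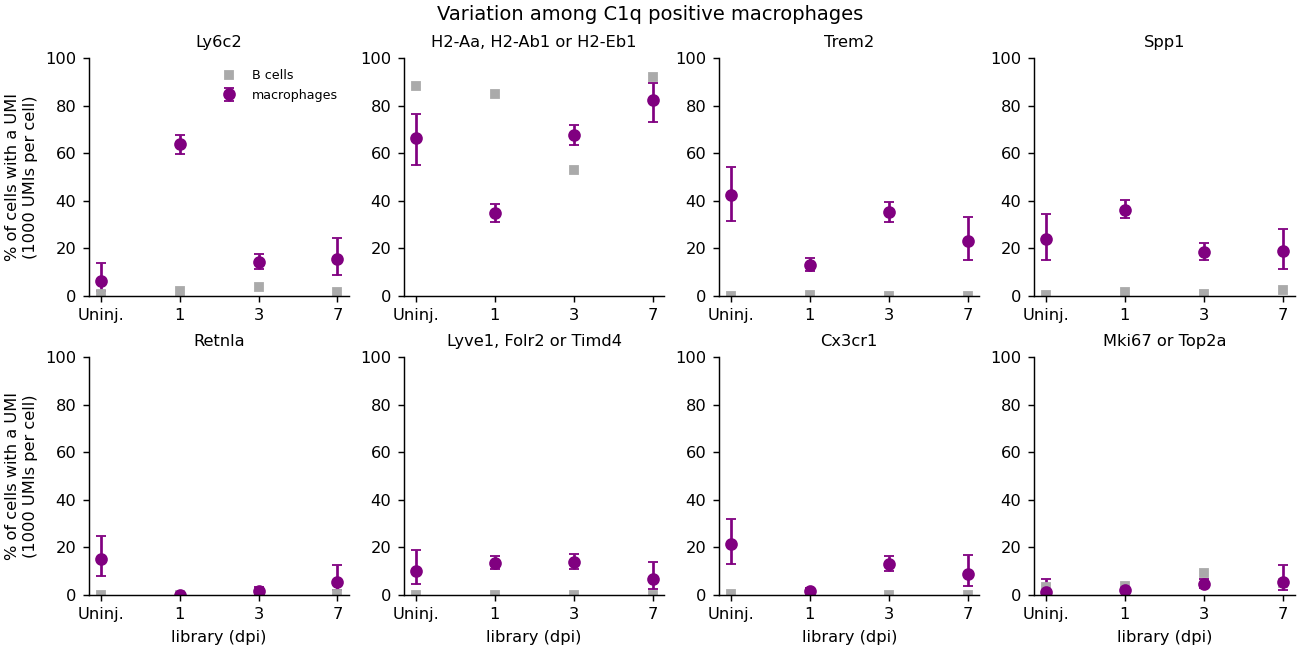
Percent of C1q positive macrophages with at least 1 UMI of the named gene or genes after thinning each cell to 1000 UMIs (points, with exact 95% intervals for counting error), and of B cells (squares), by time point. *Ly6c2* reached 63.7% at 1 dpi, where class II was carried by 34.7%.

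Uninjured macrophages with class II and those without it differed in the single genes named here and in the lysosome sum. Of the 80 cells, 53 had a class II UMI after thinning and 27 had none. Summed over those cells, the 27 without class II held more *Spp1* (5667 against 453 CPM), *Trem2* (1037 against 377 CPM), *Lgals3* (4074 against 1377 CPM), *Gpnmb* (296 against 18.9 CPM) and lysosome genes (15889 against 8453 CPM). The 53 cells held the *Retnla* (5604 CPM), *Lyz1* (1057 CPM) and *Mgl2* (264 CPM) of this library, all at 0 UMIs in the 27. A single UMI is worth 18.9 CPM in the 53 cells and 37.0 CPM in the 27. Mesenchymal genes differed too, at 3340 and 6407 CPM. These cells come from 1 library, so the split describes it and has no test.

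The *Retnla* cells of Uninjured muscle were 12 of the 53. They held no UMI of *Trem2*, *Spp1* or *Cx3cr1*, against 706, 2603 and 309 CPM in the other 68 cells, and *Lyz1* at 3833 against 147 CPM. *Mgl2*, at 1083 against 14.7 CPM, and class II, at 46500 against 19294 CPM, were higher in them. *Apoe* was lower in them, at 5250 against 18191 CPM. A single UMI is worth 83.3 CPM among these 12 cells. The *Cd209a* dendritic cells of Uninjured muscle held *Retnla* too, at 1263 CPM. In these dendritic cells class II stood at 57676 CPM, *Trem2* at 5.07 CPM and *Apoe* at 144 CPM. Whether the 12 cells belong with them was not tested.

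**Figure D5:**
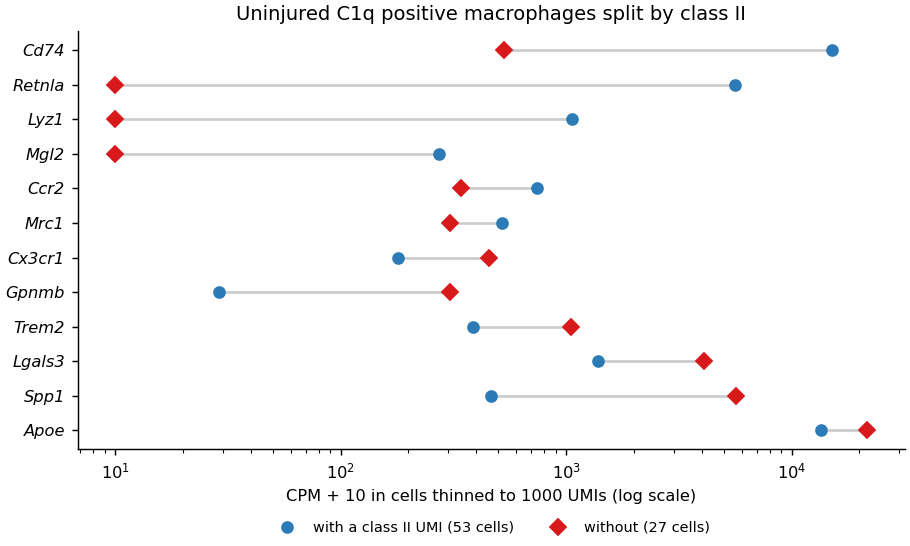
The 80 C1q positive macrophages of Uninjured muscle, each thinned to 1000 UMIs, split into 53 cells with and 27 cells without a class II UMI. The horizontal log axis is the summed CPM plus 10 of each gene in each set. *Retnla*, *Lyz1* and *Mgl2* were at 0 UMIs in the 27 cells.

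Whether the class II split differed after injury was not tested. After thinning, *Trem2* was commoner in cells without class II in every library. Its shares without and with class II were 70.4 and 28.3% in Uninjured and 14.3 and 10.5% at 1 dpi. They were 43.6 and 31.1% at 3 dpi, and 37.5% of 16 cells and 15 of 75 cells at 7 dpi. *Retnla* cells had class II in 7 of 8 cases at 3 dpi and in 5 of 5 at 7 dpi. *Pf4* and *Ccl8* below were not among the genes named for Uninjured. At 3 dpi the 156 macrophages without a class II UMI held *Spp1* at 904 CPM against 262 CPM in the 328 with one, *Gpnmb* at 333 against 70.1 CPM and *Pf4*, platelet factor 4, at 1321 against 588 CPM. At 1 dpi *Pf4* stood at 1007 CPM in 412 cells without and 315 CPM in 219 cells with class II, and *Ccl8* at 801 and 151 CPM. *Ly6c2* was at 2114 and 2000 CPM in the same sets at 1 dpi, and so did not follow class II.

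Cells with *Lyve1*, *Folr2* or *Timd4* were 85 of 631 at 1 dpi. They held *Ccl8* at 1882 CPM against 372 CPM in the remaining 546, *Cbr2* at 588 against 326 CPM and *Tnf* at 247 against 586 CPM. The type I interferon genes were at 5729 and 5247 CPM. A UMI of *Ccl8* was found in 14 of the 85 cells and in 68 of all 631, so its level rests on few cells. At 3 dpi the 67 cells with *Lyve1*, *Folr2* or *Timd4* held *Ccl8* at 836 CPM against 187 CPM in 417, and *Pf4* at 1925 against 647.5 CPM. *Ccl8* was found in 11 of these 67 cells and in 43 of all 484. The macrophages with *Ly6c2* at 1 dpi, 402 cells, held type I interferon genes at 6017 CPM and those without, 229 cells, at 4074 CPM.

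The macrophages were set beside classical monocytes and *Cd209a* dendritic cells of the same libraries. The C1q threshold is part of each gate, so this is a description. The monocyte gate also held neutrophil genes at the levels given with its cell numbers. Against classical monocytes, the genes higher by the largest fold in every library were *Pf4*, *Folr2*, *Cbr2*, *Ms4a7*, *Slamf9*, *Wwp1*, *Pltp*, *Timp2*, *Cxcl16* and *Serping1*. *Pf4* stood at 4.78, 87.0, 14.6 and 0 CPM in the monocytes, so the macrophage level was 7.98 times theirs at 1 dpi and further above it in the other libraries. *Ms4a7*, a membrane gene of mature macrophages, was at 3.56 to 41.6 times the monocyte level. The macrophages of 1 dpi were closest to the monocytes for both. *Plac8* stood at 2805, 2619, 2064 and 2587 CPM in the monocytes and was higher in them than in the macrophages in every library, while *Ccr2* stood at 698, 591, 402 and 718 CPM.

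The type I interferon genes stood at 817, 3822, 948 and 971 CPM in classical monocytes and 566, 2380, 1301 and 1186 CPM in *Cd209a* dendritic cells, highest at 1 dpi in each. The class II group of classical monocytes, at 2336, 2722, 2703 and 7977 CPM, was not lower at 1 dpi than in Uninjured, and that of the dendritic cells stood at 57676, 38499, 43634 and 43445 CPM. *Il10* stood at 0, 99.5, 9.29 and 2.82 CPM in classical monocytes, so at 3 dpi the macrophages held more of it, at 88.2 CPM. Against dendritic cells *Pf4*, *Ms4a7*, *Apoe* (60.9 to 277 times), *Trem2* (28.9 to 107 times), *C3ar1*, *Cbr2*, *C5ar1*, *Stab1*, *Pla2g7* and *Gdf15* led.

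RNA of other cell types was present in the macrophages. Mesenchymal genes summed to 7186, 2094, 6717 and 11010 CPM in the macrophages, against 49519, 19800, 23975 and 37985 CPM in the remaining cells, with *Gsn* (first 2 libraries), *Col3a1* and *Col1a1* the most abundant. They passed 1% of the UMIs of 12, 20, 41 and 21 macrophages. Neutrophil genes stood at 18.7, 2709, 1670 and 32.4 CPM, of which 1 macrophage held 54.7% at 1 dpi and 1 held 76.9% at 3 dpi, and *Ly6g*, *Retnlg* and *S100a9* were at 0 UMIs in Uninjured. Chondrocyte genes stood at 1.25, 4.29, 8.76 and 2338 CPM, with 44.0% of the 7 dpi UMIs in 1 macrophage, while B cells of that library held 2858 CPM. T and NK cell genes stood at 0, 55.8, 71.0 and 117 CPM, with all 10 at 0 UMIs in Uninjured, and B cell genes, led by *Ighm*, at 169, 379, 348 and 230 CPM. Collagen and cartilage genes in these cells are therefore not read as macrophage expression. Their part in the results above was not tested. Another type passed 1% of UMIs in 12, 25, 44 and 22 macrophages.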

How the data were processed

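The 4 libraries were made on the 10x Genomics platform. Per the labels and the study's methods, the authors used Cell Ranger 5.0.0 with the STAR aligner, mapped to mm10, and analysed the matrices with Seurat 3.1.1, which the submitters' processing notes name. They deposited 1 UMI count matrix of 32285 genes per library, and these whole-number counts were used as deposited. The labels mention down-sampling of reads, and the libraries' totals differ. The deposited matrices hold 62665 barcodes, more than the study kept after its own quality control; limits of 2 standard deviations on the log of UMIs and genes with the 10% mitochondrial limit leave 57155. Doublets were not removed, and a Scrublet alternative was run.

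The 4 groups followed the labels, with 3 muscles pooled into each library. UMIs were summed over the C1q positive macrophages of a library and divided by their total to give CPM, with exact Poisson intervals. Ratios between libraries carry exact conditional binomial intervals and shares Clopper-Pearson intervals, at 95%. A group at 0 UMIs entered a ratio at a floor of 3 UMIs per library. Genes needed a mean of 20 CPM and 20 UMIs in a pair. With 1 library per time point, no p-value was computed. The intervals were tested on simulated data for 1 dpi against Uninjured, where they covered the true ratio for 95.16% of 5409 genes, of which 200 were changed.

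The genes of the rule, those the study names for M1 and M2, up to 4 examples per gene group, and the 10 genes furthest up and down in each successive pair were named. Ranked genes needed 30 UMIs in the higher library and a level there not below that of the remaining cells. Genes leading each comparison with another gate had at least 50 CPM in every library. Classical monocytes had at least 3 *Ly6c2* UMIs, the gate for nonclassical monocytes asked for at least 2 *Ace* or *Treml4* UMIs, both with at most 2 C1q UMIs. *Cd209a* dendritic cells had at least 2 *Cd209a* and 10 class II UMIs and at most 9 C1q UMIs, and B cells at least 3 *Cd79a* or *Cd79b* UMIs and no *Csf1r*, *Fcgr1* or *Adgre1* UMI. The members and gene lists were chosen with earlier results of these data known, and the B cell reference, the comparisons of 3 and 7 dpi with Uninjured and the removal of a gene's top cell were chosen after seeing the data. Paralogs such as the *Ifit*, *Lyz*, *Ear* and class II genes can share reads. Gene positions come from GENCODE M21 on GRCm38, in which 32235 of the 32285 identifiers (99.85%) were found, and promoters from RefSeq on GRCm38.p6. Python 3.11.15, numpy 2.4.6, scipy 1.17.1, pandas 2.3.3, scanpy 1.11.5 and matplotlib 3.10.9 were used. Some listed genes are not reported here.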

Additional observations from a re-analysis of the deposited data

How the results depend on the processing

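Counting error is the only error available with 1 library per time point, and 80 and 92 macrophages at Uninjured and 7 dpi let single cells carry a gene. No paired analysis was possible because each time point had a single library. The shares depended on the rule, and 13 of 32 alternative shares moved. With cells thinned to 2000 UMIs before the rule they were 0.355% in Uninjured, 2.54% at 1 dpi, 2.90% at 3 dpi and 0.304% at 7 dpi. A threshold of 5 C1q UMIs gave 7.10, 3.88 and 0.582% at 1, 3 and 7 dpi, and 20 UMIs gave 4.24, 2.88 and 0.274%. C1q of at least 0.2% of a cell's UMIs gave 5.23% at 1 dpi. Removing cells with over 1% of another type's UMIs gave 3.12% at 3 dpi and 0.304% at 7 dpi.

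Counts of genes past the fold, higher and lower, for 1 dpi against Uninjured, 3 against 1 dpi and 7 against 3 dpi were 321 and 166, 137 and 165, and 106 and 160 at a mean of 50 CPM. They were 1207 and 892, 886 and 421, and 547 and 788 at 5 CPM, and 257 and 170, 144 and 73, and 90 and 76 at 3-fold; these settings change the number of genes by construction. Genes at least as high as in the remaining cells numbered 97 lower at 1 dpi, 75 higher at 3 dpi and 63 higher at 7 dpi. Without cells with over 1% of another type 222 were lower at 1 dpi and 156 higher at 3 dpi. Thinning before the rule gave 184 higher at 3 dpi, thinning the macrophages to 1000 UMIs gave 424 lower at 3 dpi, removing the top 7.5% of Scrublet scores gave 430 higher at 7 dpi, and leaving out each gene's top cell, chosen after seeing the data, gave 557 lower at 7 dpi. The cause was not tested. The other 63 of 90 alternative counts stayed within 1.5 times.

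Of 420 alternative log2 ratios of gene groups 171 stayed within the counting interval and 249 moved out of it, and none of those past 2-fold changed sign. Among smaller ones, alternative activation at 7 against 3 dpi ranged from -0.04 to 0.83 and, at 1 dpi against Uninjured, cell cycle from -0.28 to 0.71 and growth factors from -0.61 to 0.09. Inflammatory enzymes at 1 dpi ranged from -0.13 to 0.09, lysosome genes at 3 against 1 dpi from -0.16 to 0.10 and chemokines at 7 against 3 dpi from -0.16 to 0.44. The type I interferon group at 1 dpi against Uninjured ranged from 2.90 to 3.90 around 3.12, and class II from -2.24 to -1.83 around -1.98. Of 660 alternative values of ranked genes 643 stayed past the fold. *Fabp4* at 7 against 3 dpi turned, to -0.53 with thinning before the rule, -2.28 within 2 standard deviations, -0.00397 with macrophages thinned to 1000 UMIs and -2.11 without its top cell, which held 98.0% of its UMIs.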

Other observations

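Groups of genes outside the comparisons above were measured in the same macrophages. Immediate early and heat shock genes, which respond within minutes to stress and to tissue digestion, summed to 31286 CPM in Uninjured, 23233 CPM at 1 dpi, 19283 CPM at 3 dpi and 18539 CPM at 7 dpi, and the remaining cells held 31277, 20216, 13138 and 11144 CPM. The order over the libraries was the same in both. *Fos*, an AP-1 factor, stood at 9456, 4145, 4001 and 4887 CPM in the macrophages. Their part in the results above was not tested.

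Among transcription factors, *Klf2*, which restrains inflammatory genes in myeloid cells, stood at 2639.5, 1078, 1008 and 1407 CPM and was highest in Uninjured. *Maf*, a factor of resident and *Il10* producing macrophages, stood at 225, 519, 340 and 199 CPM and was highest at 1 dpi. *Cebpb* stood at 1450, 1184, 650.1 and 480 CPM and was lower in each later library. *Hes1*, a target of Notch signalling, stood at 71.2, 8.77, 13.8 and 25.9 CPM, below the remaining cells in each.

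*Clec4e*, which encodes the receptor Mincle for dead cell material, stood at 32.5, 236.5, 60.7 and 51.9 CPM, above the remaining cells in every library. *Hmox1*, the enzyme that breaks down haem, stood at 239, 361, 142 and 164 CPM, and *Fth1*, the ferritin heavy chain, at 8091, 11983, 9258 and 6103 CPM. Both were highest at 1 dpi, and the iron and haem group had none of 10 genes past the filter at least 2-fold higher there. Glycolysis genes summed to 3524, 3270, 3257 and 3954 CPM. *Timp1*, an inhibitor of matrix proteases, stood at 23.7, 46.9, 338.5 and 339 CPM, below the remaining cells in every library.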
